A study of Mus musculus with 2 samples.

Results

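Cells that divide need a set of genes that is transcribed late in the cell cycle, and 36 of them were described here in cultured mouse T helper 17 (Th17) cells, out of 15574 genes with a read in either library. They were chosen by gene symbol, and they fall by role into cyclins and their kinase, mitotic kinases, the chromosomal passenger complex, kinetochore and centromere proteins, regulators of the checkpoint and of anaphase, spindle and cytokinesis proteins, and condensin with other chromosome proteins. All 36 had at least 1 read in each library, and 35 had a mean of at least 1 CPM (counts per 1000000 reads, scaled between libraries). The exception was Ttk, with 1 read in each library.

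The study set out to find genes that depend on CREB, the cyclic AMP-responsive transcription factor encoded by Creb1, in Th17 cells. There was 1 library labelled CREB KO and 1 library labelled wildtype, both from mice of C57BL/6 background. In both, isolated naive T cells were cultured for 6 days with IL6, TGFb, IL1b and IL23 and then stimulated with plate-bound CD3 for 4 h. The labels say nothing of the age of the mice, any pooling, the cells in which Creb1 was deleted or the deleted exons.

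The KO-labelled library held 23.9 M counted reads and the wildtype library 26.5 M. The targeted gene, Creb1, had 25 reads in the KO-labelled library and 13 in the wildtype one. Its mean of 0.766 CPM is under the 1 CPM level used for ratios, it has 3 curated transcripts, and the deleted exons are not stated, so these counts cannot check the label. The name "KO-labelled" is used for that library throughout. The T cell markers Cd3e, Cd3d, Cd4 and Trac summed to 35250 reads in it and 39983 in the wildtype library, with Trac at 0 in both. Of the Th17 markers, Il17f had 13041 reads in the KO-labelled library and 39898 in the wildtype one, and Il17a 6981 in the KO-labelled library and 13093 in the wildtype one. Markers of B, NK, myeloid, dendritic and Treg cells and of neutrophils summed to at most 54 reads per cell type and library. Among these, NK and neutrophil markers were at 0 in both libraries. Of the CD8 T cell markers, Cd8b1 had 234 and 237 reads and Cd8a had 0. With 1 library per genotype no p-value can be given, and each difference lies between 2 libraries. Intervals are exact conditional binomial 95% intervals and cover counting error only.

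Mitotic genes are switched on in G2 phase and mitosis and held off in resting cells. In mammals the DREAM complex and the factors B-MYB and FOXM1 act on their promoters, largely through the cell cycle genes homology region (CHR) and through CCAAT boxes bound by NF-Y. Their products condense the chromosomes, attach them to the spindle, hold back anaphase until every chromosome is attached, and then divide the cell. In T cells, whose numbers expand after activation, these transcripts are commonly used as a sign of proliferation.

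The promoters of the 36 genes were looked at first, because CREB binds the cyclic AMP response element (CRE). RefSeq promoter windows on GRCm38.p6, 300 bases long with 250 before the annotated start, were found for 30 of the 36. No window was found for Ccna2, Aurkb, Incenp, Spc24, Tpx2 and Smc4, so their promoters were not searched. The motifs searched on both strands were the full CRE (TGACGTCA), its core site (TGACG, which a full CRE holds on each strand), the CHR (TTTGAA), a CHR variant (TTCGAA) and the CCAAT box (CCAAT). A full CRE was found in 3 of the 30, in the windows of Cenpe, Ndc80 and Ncaph, which is 10% of them, against 1.79% of all 32851 promoter windows. A core site was found in 9 of 30 (30%), against 20.8% of all windows. In these motif shares the members were counted by gene. The background was counted by window, whether or not the gene is expressed in these cells, so it is not matched to the members. The following 3 windows are shown because they hold the full CRE, and capitals mark each match to any of the 5 motifs, 5′ to 3′ in the direction of the gene.

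Cenpe, chr3:135212313-135212612, plus strand: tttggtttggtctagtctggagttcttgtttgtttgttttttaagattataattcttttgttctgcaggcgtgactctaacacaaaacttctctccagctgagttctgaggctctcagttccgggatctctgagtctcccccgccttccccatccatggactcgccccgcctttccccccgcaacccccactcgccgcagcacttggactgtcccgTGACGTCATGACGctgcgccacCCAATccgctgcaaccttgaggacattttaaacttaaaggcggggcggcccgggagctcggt

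Ndc80, chr17:71526808-71527107, minus strand: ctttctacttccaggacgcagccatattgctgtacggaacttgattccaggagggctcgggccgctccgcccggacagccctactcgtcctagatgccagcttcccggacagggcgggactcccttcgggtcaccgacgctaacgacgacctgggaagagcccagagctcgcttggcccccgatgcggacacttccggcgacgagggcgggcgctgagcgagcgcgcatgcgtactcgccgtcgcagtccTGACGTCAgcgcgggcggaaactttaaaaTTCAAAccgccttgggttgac

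Ncaph, chr2:127133905-127134204, minus strand: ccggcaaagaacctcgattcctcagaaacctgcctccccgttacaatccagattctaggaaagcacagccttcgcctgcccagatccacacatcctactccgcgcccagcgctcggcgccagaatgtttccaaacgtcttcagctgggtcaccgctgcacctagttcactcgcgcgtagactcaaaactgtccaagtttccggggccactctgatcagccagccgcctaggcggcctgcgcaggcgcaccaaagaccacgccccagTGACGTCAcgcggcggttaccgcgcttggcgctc

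In Cenpe the full CRE begins 34 bases upstream of the annotated start and is followed directly by another core site, and a CCAAT box begins 12 bases upstream. In Ndc80 the full CRE begins at the annotated start, and in Ncaph 16 bases after it. The CHR and the CCAAT box were found in more of these windows than the full CRE, which is a longer motif and also rarer in all windows. A CHR was found in 21 of 30 windows (70%), against 17.9% of all windows, and a CCAAT box in 23 of 30 (76.7%), against 37.4%. Both a CHR or its variant and a CCAAT box were found in 21 of 30 (70%), against 7.52% of all windows. Of the CHR matches in these genes, 20 of 27 began no more than 50 bases before the annotated start or after it (74.1%), against 25.3% of such matches in all windows. Prc1 has a pair of overlapping windows, and its CHR was counted in each of them. The windows of Cdk1, Ccnb2 and Plk1 are shown as examples with a CHR near the start and at least 1 CCAAT box upstream of it.

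Cdk1, chr10:69352863-69353162, minus strand: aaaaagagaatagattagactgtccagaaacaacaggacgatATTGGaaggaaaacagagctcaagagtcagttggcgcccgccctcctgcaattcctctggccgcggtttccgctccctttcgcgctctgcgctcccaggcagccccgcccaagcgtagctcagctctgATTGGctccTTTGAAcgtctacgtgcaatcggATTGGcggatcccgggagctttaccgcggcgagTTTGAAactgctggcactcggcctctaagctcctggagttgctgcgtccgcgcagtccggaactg

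Ccnb2, chr9:70421505-70421804, minus strand: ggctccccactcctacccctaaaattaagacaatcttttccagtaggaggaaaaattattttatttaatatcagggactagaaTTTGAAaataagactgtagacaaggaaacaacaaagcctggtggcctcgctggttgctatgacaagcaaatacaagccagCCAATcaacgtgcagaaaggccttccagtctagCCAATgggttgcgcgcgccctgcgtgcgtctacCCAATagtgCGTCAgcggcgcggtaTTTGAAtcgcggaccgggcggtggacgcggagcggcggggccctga

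Plk1, chr7:122159185-122159484, plus strand: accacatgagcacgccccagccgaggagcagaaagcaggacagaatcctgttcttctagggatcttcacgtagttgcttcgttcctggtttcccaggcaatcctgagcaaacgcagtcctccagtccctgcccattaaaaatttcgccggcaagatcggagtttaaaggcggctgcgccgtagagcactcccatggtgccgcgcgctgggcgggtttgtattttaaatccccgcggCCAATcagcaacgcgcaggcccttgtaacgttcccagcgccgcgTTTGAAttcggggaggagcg

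Cdk1 has a CHR that begins 15 bases upstream of the start and another 71 bases upstream, with 3 CCAAT boxes. Ccnb2 has a CHR 4 bases after the start and another 167 bases upstream. It also has 3 CCAAT boxes, of which the nearest begins 21 bases upstream. Between the last CCAAT box of Ccnb2 and its CHR after the start lies a CRE core site. Plk1 has a CHR 30 bases after the start and 1 CCAAT box, which begins 14 bases upstream. A match is a description of the sequence and does not show binding.

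**Figure D1:**
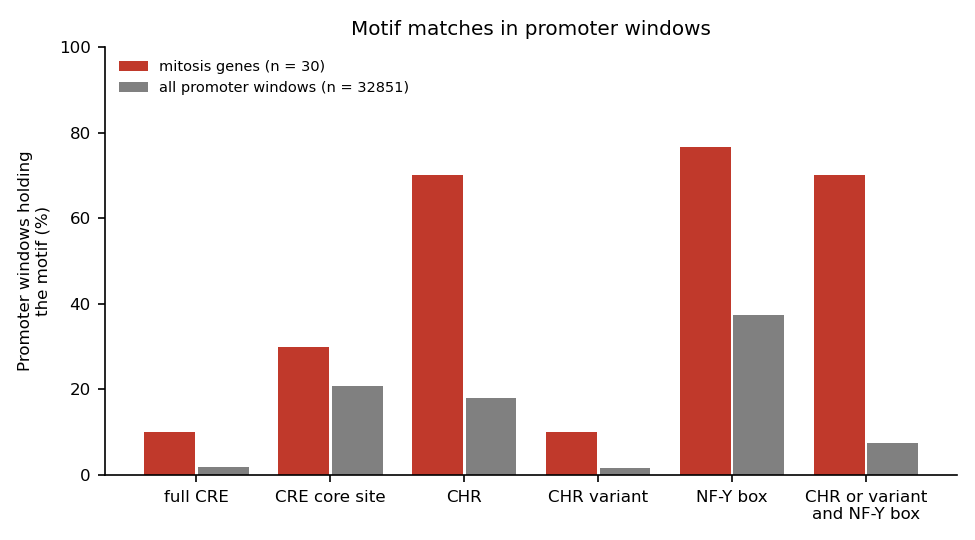
Share of promoter windows (%) that hold each motif, in the 30 mitosis genes with a window (red) and in all 32851 RefSeq windows (grey). The CHR is in 70% of the windows of mitosis genes against 17.9% of all, and the full CRE in 10% against 1.79%.

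Most of the genes were abundant in both libraries, with exceptions that are given below. Levels of different genes are given as RPKM, reads per kilobase of merged exon, scaled to library size. Ube2c, which encodes the ubiquitin-conjugating enzyme of the anaphase-promoting complex, had 205 RPKM in the KO-labelled library and 212 in the wildtype one, rank 302 and 296 of 10076 protein-coding genes. Cdc20, an activator of the same complex, had 192 and 189 RPKM in the same order. Top2a, the topoisomerase that untangles sister DNA, had 189 and 198 RPKM, and Ncapd2, a condensin subunit, 166 and 162 RPKM. By merged exon length these 4 genes were the highest of the 36 in both libraries, while by longest transcript Ccna2 stood at 177 RPKM in the wildtype library, above Ncapd2 at 162.

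At the other end, 8 of the 36 lay under 10 RPKM in both libraries: Ttk, Bub1, Spc25, Pttg1, Tpx2, Nusap1, Prc1 and Racgap1. Each of the 8 has 2 to 10 curated RefSeq transcripts, while none of the 19 members with 1 curated transcript was below 10 RPKM. The members with 1 curated transcript ranged from 11.9 to 205 RPKM in the KO-labelled library (median 98.7) and from 13.3 to 212 in the wildtype library (median 105). The 17 members with 2 or more ranged from 0.0144 to 128 RPKM (median 25.2) in the KO-labelled library and from 0.0130 to 129 (median 26.0) in the wildtype library. Over all protein-coding genes that reached 1 CPM on average the medians were 5.71 and 5.69 RPKM for 4528 genes with 2 or more curated transcripts, and 13.0 and 13.3 for 5544 genes with 1. How reads matching several transcripts were treated is not stated, and its part in these levels was not tested. Other members with 2 or more curated transcripts stood well above 10 RPKM, such as Cenpa with 6 (102 and 105 RPKM) and Incenp with 2 (128 and 129 RPKM). Whether the low levels of the 8 genes reflect low expression was not tested.

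**Figure D2:**
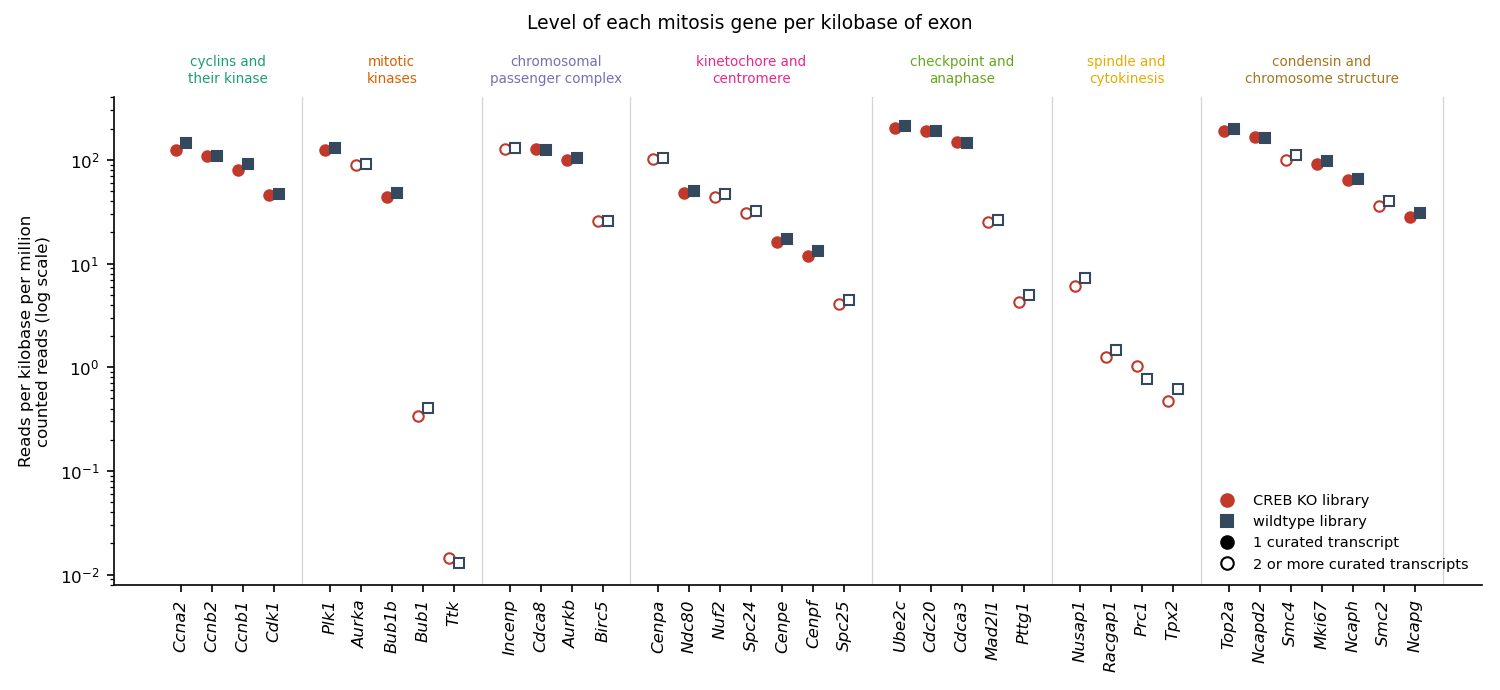
Level of each gene in reads per kilobase of merged exon, scaled to library size (RPKM, log axis), in the KO-labelled library (red circles) and the wildtype library (dark squares), by role. Open symbols are genes with 2 or more curated RefSeq transcripts, and the 8 genes under 10 RPKM are all open.

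Between the libraries the differences were small. Of the 35 genes of 1 CPM or more, 0 were 1.2-fold lower with an interval below 1, against 5.48% of the 10462 genes tested, and 0 were 1.2-fold higher with an interval above 1, against 6.19% of them. It follows that 0 were 1.5-fold apart in either direction, against 1.5% of all genes tested lower and 2.48% higher. A ratio below 1 was found for 29 of 35, against 51.9% of all genes tested, and 6 had a ratio above 1, against 48.1%. The interval lay below 1 for 16 of 35, against 19.5% of all genes, and above 1 for 1 (Ncapd2), against 16.2%. The median log2 ratio was -0.07, beside -0.01 over all genes tested. Together the 36 genes took 0.831% of counted reads in the KO-labelled library (exact binomial 95% interval 0.827 to 0.834) and 0.866% in the wildtype library (0.862 to 0.869). In bulk RNA from 1 library per genotype, fewer cells in mitosis, less of this RNA per cell and variation between libraries cannot be told apart.

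Because intervals narrow with depth, the 26 genes of the list that averaged 100 CPM or more were also set beside the 2162 genes at that level. Of these 26, 21 had a ratio below 1, against 57.4% of the 2162, and 5 a ratio above 1, against 42.6%. The interval lay below 1 for 15 of them, against 34.6%, and above 1 for 1, against 24%. At this level 0 of the 26 were 1.2-fold lower with an interval below 1, against 1.02% of the 2162. Likewise 0 were 1.2-fold higher with an interval above 1, against 1.2%. Counts of 0 therefore do not set the 26 genes apart from others of that depth. Their median log2 ratio was -0.06 beside -0.02, and they ranged in ratio from 0.858 to 1.03. Their log2 ratios had an SD of 0.0702, beside 0.121 over the 2162 genes. None of the 26 lay more than 2 of those SDs from the median of the 2162 genes. The intervals below cover counting error only and not this spread. DNA replication genes had a median log2 ratio of -0.06 over the 18 at this level, of which 15 had a ratio below 1, and other mitosis genes one of -0.06 over 34, of which 26 did.

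**Figure D3:**
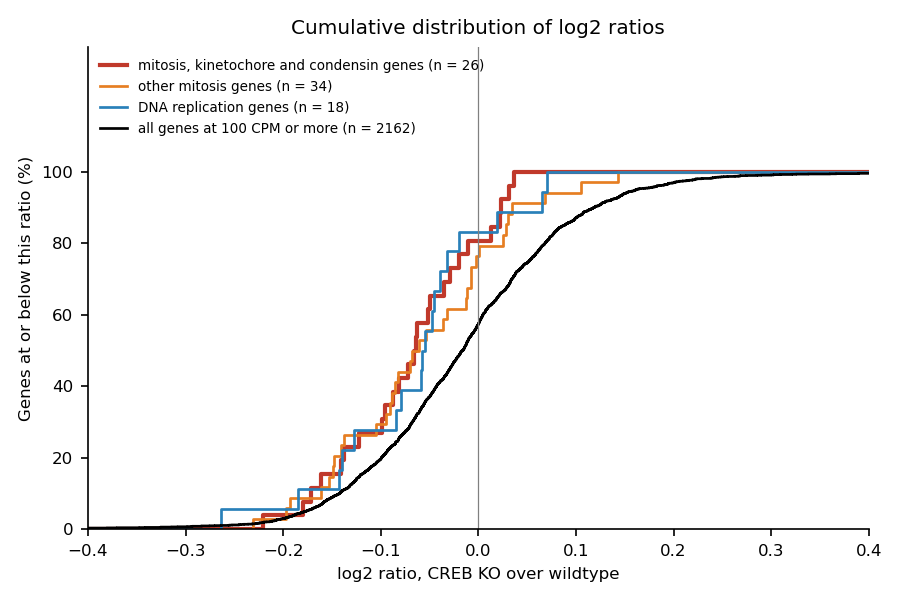
Share of genes (%) at or below each log2 ratio of the KO-labelled library over the wildtype library, for genes that averaged 100 CPM or more. The curve of the 26 mitosis genes crosses the middle at -0.06, near those of 34 other mitosis genes and 18 DNA replication genes and left of all 2162 genes at -0.02, and it ends at a ratio of 1.03.

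Among the cyclins, Ccna2 encodes cyclin A2, which acts in S phase and G2, and lies on chromosome 3, 36564865 to 36572150 (GRCm38). Ccna2 had 10802 reads in the KO-labelled library and 13872 in the wildtype one, a ratio of 0.858 (95% interval 0.837 to 0.880). This was the lowest ratio among the 26 genes of the list at 100 CPM or more, and 40 of the 2162 genes at that level were as low or lower. An exon stretch of 378 bases of Ccna2 is shared with Exosc9 on the opposite strand, which itself had 1218 and 1463 reads. The cyclins B1 and B2 bind CDK1 to drive entry into mitosis. Ccnb1 had 4826 reads in the KO-labelled library and 6024 in the wildtype one, a ratio of 0.883 (0.850 to 0.917), while Ccnb2 had 4020 and 4390 reads and a ratio of 1.01 (0.967 to 1.05). Ccnb1 made up 54.6% of the reads of both B-type cyclins in the KO-labelled library (53.5 to 55.6) and 57.8% in the wildtype library (56.9 to 58.8). The shares do not depend on library scaling, and their intervals, which cover counting error only, do not overlap. Of the pairs of members compared by share, only this pair had intervals apart. Those intervals stand beside an SD of 0.121 of log2 ratios over genes that averaged 100 CPM or more. Cdk1, the kinase that both cyclins activate, had 4890 and 5500 reads and a ratio of 0.980 (0.943 to 1.02), an interval that includes 1. Per length, Ccnb2 stood at 109 and 108 RPKM and Ccnb1 at 80.8 and 91.5 RPKM.

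Of the mitotic kinases, Plk1, which acts at centrosomes, kinetochores and the cleavage furrow, had 6588 and 7634 reads in the KO-labelled library and the wildtype library, a ratio of 0.951 (0.920 to 0.983). Aurka, the centrosome and spindle kinase, had 4148 and 4635 reads and a ratio of 0.986 (0.946 to 1.03). Bub1b, which encodes the checkpoint protein BUBR1, had 3849 and 4619 reads and a ratio of 0.918 (0.880 to 0.959). The interval lay below 1 for Plk1 and Bub1b and included 1 for Aurka. Bub1, the kinase that brings checkpoint proteins to kinetochores, had only 28 and 37 reads, and its ratio of 0.836 (0.492 to 1.40) gives no direction. Bub1 and Bub1b encode related proteins, yet Bub1 made up 0.722% of their joint reads in the KO-labelled library (0.480 to 1.04) and 0.795% in the wildtype library (0.560 to 1.09). Bub1 has 2 curated transcripts and Bub1b has 1. Ttk, which encodes the checkpoint kinase MPS1, has 3 and gave 1 read in each library.

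The chromosomal passenger complex of Aurora B, INCENP, survivin and borealin corrects wrong attachments and later acts in cytokinesis. Aurkb, its kinase, had 4633 and 5455 reads in the KO-labelled library and the wildtype library, a ratio of 0.936 (0.900 to 0.974). The other subunits had intervals that include 1. Incenp, the scaffold, had 9988 and 11090 reads and a ratio of 0.993 (0.966 to 1.02), and Birc5, which encodes survivin, 2100 and 2338 reads and a ratio of 0.990 (0.933 to 1.05). Cdca8, which encodes borealin, had 5734 and 6161 reads and a ratio of 1.03 (0.989 to 1.06). Per length, Incenp stood at 128 and 129 RPKM, Cdca8 at 127 and 124 RPKM, Aurkb at 98.7 and 105 RPKM and Birc5 at 25.7 and 26.0 RPKM. Aurka made up 47.2% of Aurora A and B reads in the KO-labelled library (46.2 to 48.3) and 45.9% in the wildtype library (45.0 to 46.9), and these intervals overlap.

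All 7 kinetochore and centromere genes had a ratio below 1, in a range of 0.894 to 0.965, against 51.9% of all genes tested. The interval lay below 1 for 3 of the 7, against 19.5% of all genes tested and 34.6% of those at 100 CPM or more. Cenpf, a large outer kinetochore protein of G2 and mitosis, had 3174 and 3912 reads in the KO-labelled library and the wildtype library, a ratio of 0.894 (0.853 to 0.937). Cenpe, the kinesin that moves chromosomes to the metaphase plate and whose window holds a full CRE, had 3086 and 3598 reads and a ratio of 0.945 (0.901 to 0.992). The NDC80 complex, which grips microtubule ends, has 4 subunits in this list. Its Ndc80 had 2509 and 2890 reads and a ratio of 0.957 (0.907 to 1.01), and Nuf2 had 2919 and 3419 reads and a ratio of 0.941 (0.895 to 0.989). These partners were close in level, at 47.5 and 49.6 RPKM for Ndc80 and 44.0 and 46.8 RPKM for Nuf2. Of their joint reads, Ndc80 made up 46.2% in the KO-labelled library (44.9 to 47.6) and 45.8% in the wildtype library (44.6 to 47.0). The partners at the other end of the complex were apart in level, with Spc24 at 30.5 and 31.9 RPKM and Spc25 at 4.07 and 4.46 RPKM, and each has 4 curated transcripts. Spc24 had 1671 and 1925 reads and a ratio of 0.957 (0.896 to 1.02), and Spc25 had 155 and 187 reads and a ratio of 0.914 (0.734 to 1.14). Cenpa, the histone H3 variant that marks centromeres, had 4000 and 4568 reads and a ratio of 0.965 (0.925 to 1.01), at 102 and 105 RPKM although it has 6 curated transcripts.

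The checkpoint and anaphase genes held 2 of the 6 ratios above 1. Cdc20 had 8248 and 8952 reads in the KO-labelled library and the wildtype library and a ratio of 1.02 (0.985 to 1.05), and Cdca3, which takes part in the degradation of the mitotic inhibitor WEE1, 7028 and 7624 reads and a ratio of 1.02 (0.983 to 1.05). Ube2c had 12798 and 14602 reads and a ratio of 0.966 (0.943 to 0.989), and Mad2l1, which encodes the checkpoint protein MAD2 that holds CDC20 back, 4850 and 5595 reads and a ratio of 0.955 (0.919 to 0.993). The interval lay below 1 for Ube2c and Mad2l1 and included 1 for Cdc20 and Cdca3. Pttg1, which encodes securin, the inhibitor of separase, had 182 and 230 reads and a ratio of 0.872 (0.714 to 1.06), with 3 curated transcripts.

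All 4 spindle and cytokinesis genes are among the 8 under 10 RPKM. The ratios of Tpx2, Prc1 and Racgap1 rest on few reads, and the group's median log2 ratio of -0.24 rests on these genes and Nusap1. Nusap1, a protein that bundles spindle microtubules, had 589 and 776 reads in the KO-labelled library and the wildtype library, a ratio of 0.837 (0.750 to 0.932). Its exons share 172 bases with Oip5 on the opposite strand, which had 626 and 897 reads. Tpx2, the activator of Aurora A on the spindle, had 49 and 71 reads and the lowest ratio of the 35 at 0.762 (0.517 to 1.11). Prc1, which crosslinks the microtubules of the spindle midzone, had 76 and 62 reads and the highest at 1.35 (0.953 to 1.92). Prc1 has 10 curated transcripts, and 670 of its exon bases are shared with Rccd1 on the opposite strand. Racgap1, which with a kinesin forms centralspindlin, had 93 and 120 reads and a ratio of 0.855 (0.644 to 1.13). The intervals of Tpx2, Prc1 and Racgap1 include 1, so their directions were not detectable at this depth.

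Condensin I is built from the ATPases SMC2 and SMC4 and 3 further subunits, which are in the list as Ncapd2, Ncapg and Ncaph. Smc4 (chromosome 3, 69004738 to 69034623) had 10348 and 12848 reads in the KO-labelled library and the wildtype library, a ratio of 0.888 (0.865 to 0.911). Smc2 had 4698 and 5708 reads and a ratio of 0.907 (0.873 to 0.943), and Ncapg 2475 and 3001 reads and a ratio of 0.909 (0.862 to 0.959). Ncaph, the kleisin that closes the ring and whose window holds a full CRE, had 4121 and 4654 reads and a ratio of 0.976 (0.936 to 1.02). Ncapd2 (chromosome 6, 125168007 to 125191701) had 18449 and 19894 reads and a ratio of 1.02 (1.002 to 1.04), with an interval just above 1. The intervals of Smc4, Smc2 and Ncapg lay below that of Ncapd2, but they cover counting error only, beside the SD of 0.121 of log2 ratios over genes that averaged 100 CPM or more. Per length, the order was Ncapd2 at 166 and 162 RPKM, Smc4 at 99.9 and 113 RPKM, Ncaph at 63.7 and 65.3 RPKM, Smc2 at 36.2 and 39.9 RPKM and Ncapg at 27.8 and 30.6 RPKM. Smc2 made up 31.2% of the joint reads of the ATPase pair in the KO-labelled library (30.5 to 32.0) and 30.8% in the wildtype library (30.1 to 31.4). Top2a had 23738 and 27322 reads and a ratio of 0.958 (0.941 to 0.974), and Mki67, which encodes Ki-67, a proliferation marker that coats mitotic chromosomes, 21947 and 25905 reads and a ratio of 0.934 (0.917 to 0.951).

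**Figure D4:**
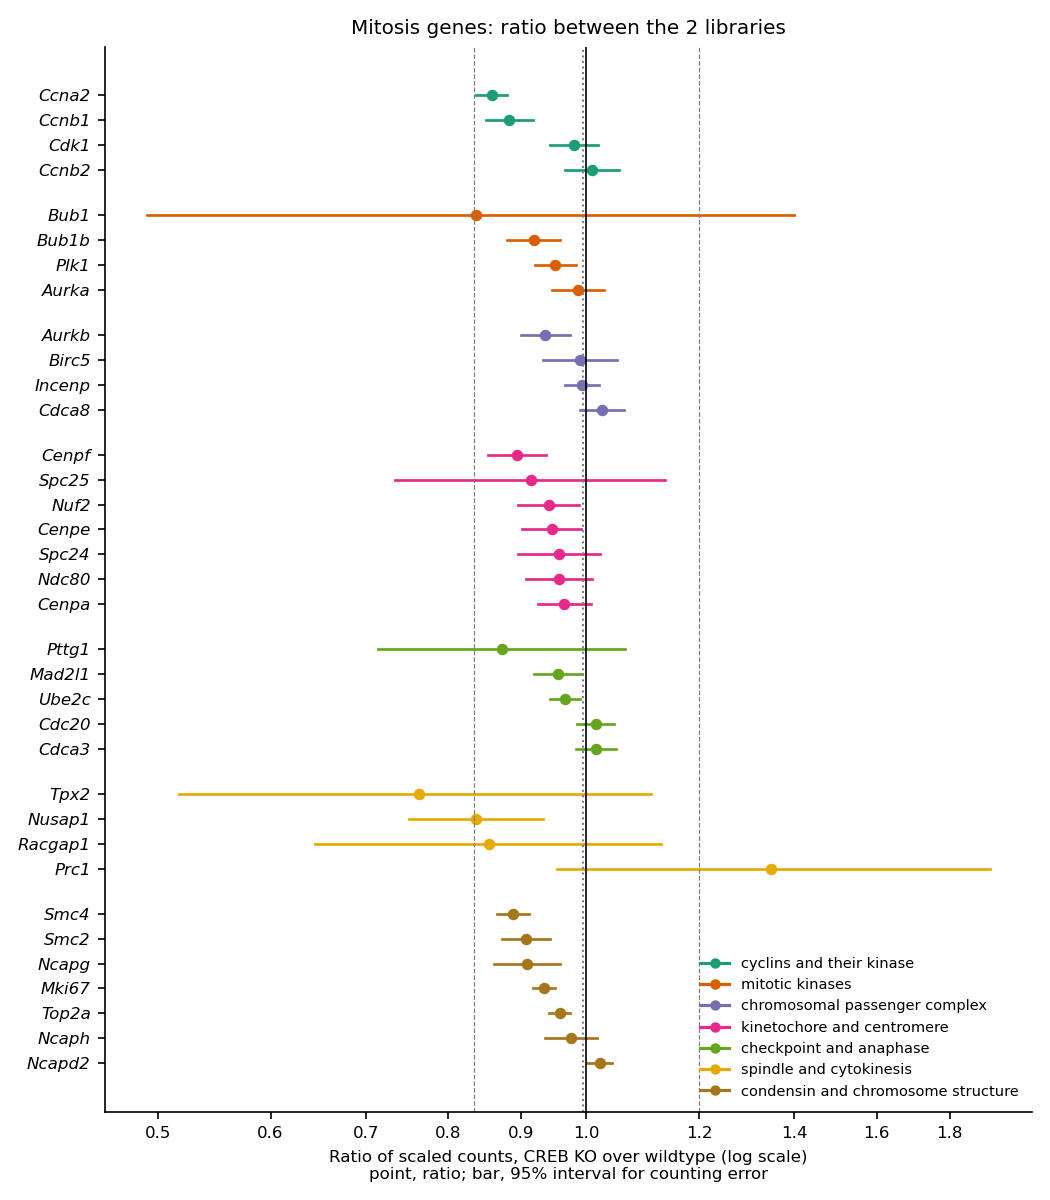
Ratio of scaled counts, KO-labelled library over wildtype (log axis), with 95% intervals for counting error, for the 35 genes of 1 CPM or more, by role. Dashed lines mark 1.2-fold and the dotted line the median of all genes tested. The 26 genes at 100 CPM or more lie between 0.858 and 1.03, and the wide bars belong to genes with few reads, such as Bub1, Tpx2 and Prc1.

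The median ratios of genes with and without each promoter motif are given as a description. They leave out the genes without a window, which are Ccna2, Aurkb, Incenp, Spc24, Tpx2 and Smc4. The 3 genes with a full CRE had a median ratio of 0.957, beside 0.953 for the 26 measured genes whose window held none. The 9 genes with a core site had a median of 0.941, beside 0.961 for 20 without. The 20 measured genes with a CHR had a median of 0.961, beside 0.941 for 9 without. With a CCAAT box the median was 0.954 over 22 genes, beside 0.955 for 7 without, and with the CHR variant it was 0.918 over 3 genes, beside 0.956 for 26 without.

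Of a further list of mitosis genes, which leaves out Knstrn and kinesins such as Kif11, Kif15 and Kif23, 114 were in the files. Of the 107 with 1 CPM or more, 3 were 1.2-fold lower with an interval below 1 (Mastl, Oip5 and Cenpp), against 5.48% of all genes tested, and 0 were 1.2-fold higher with an interval above 1, against 6.19%. The other 104 were within 1.2-fold. The median log2 ratio was -0.04, with 71 ratios below 1, against 51.9% of all genes tested, and 36 above, against 48.1%. Mastl, the kinase that keeps a phosphatase off during mitosis, had 755 and 1118 reads and a ratio of 0.744 (0.678 to 0.817). Oip5, which helps to load CENP-A, had a ratio of 0.769 (0.693 to 0.853). Cenpp, a centromere protein, had 312 and 444 reads and a ratio of 0.775 (0.668 to 0.897). Bora, the cofactor of Aurora A in activating PLK1, had 914 and 1207 reads and a ratio of 0.835 (0.765 to 0.910). The highest ratios at 10 CPM or more were those of Cenpw at 1.15 (0.972 to 1.36), Cdc26 at 1.14 (1.04 to 1.24), and Numa1 and Lin37 at 1.10 each (1.07 to 1.14 and 1.03 to 1.18). Cohesin and the remaining condensin genes had the lowest median of the other groups, -0.09 over 18 genes, of which 16 had a ratio below 1, against 51.9% of all genes tested. Of the regulators, Foxm1 had 5805 and 6709 reads and a ratio of 0.954 (0.921 to 0.988), Mybl2, which encodes B-MYB, 5403 and 5831 reads and a ratio of 1.02 (0.984 to 1.06), and E2f1 2436 and 2960 reads and a ratio of 0.907 (0.859 to 0.957). Lin9, a DREAM subunit, had a ratio of 0.874 (0.770 to 0.990), and Lin54, the DREAM subunit that contacts the CHR, had 5 and 6 reads and 4 curated transcripts, too few for a direction.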

How the data were processed

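Counts of uniquely assigned reads per gene symbol were deposited by the authors, 1 file per library, without normalization, per the file headers. Genome build mm10 and the tools HTSeq and bcl2fastq are listed in the submitters' processing notes. The aligner, annotation, strand setting and handling of multi-transcript reads are not stated. Genes listed in 1 library only were taken as 0 in the other.

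Libraries were scaled with TMM factors from edgeR 4.0.16 (R 4.3.3), and ratios used a prior count of 0.5. The quasi-likelihood test was not fitted, since each group is 1 library, and no p-value was computed. Intervals are exact (Clopper-Pearson) 95% intervals, computed with scipy 1.17.1. PCR duplicates are not independent molecules, so these may be too narrow. Genes entered at a mean of 1 CPM. Exon lengths and positions came from GENCODE M21 (GRCm38, the same assembly as mm10) for 15417 of 15574 genes, and promoter windows and curated transcripts from RefSeq (GRCm38.p6). Exons of 7 members overlap those of genes on the opposite strand, with the largest shares in Ube2c (22.8% of exon bases), Prc1 (21.8%) and Ncapg (20.8%). Whether reads in the shared bases were counted, and for which gene, is not known. The ratio step was tested on simulated counts. The named genes are all members, Creb1, Il17a and Il17f as checks of the labels, and of the other mitosis genes the 4 lowest and 4 highest ratios at 10 CPM or more plus 5 regulators. The members and lists were chosen with earlier results of these data known. Alternatives were other scalings (DESeq2 1.42.0 among them), filters, a prior count of 5, thinning, exon lengths and curated transcripts. The result for 1 of the Th17 markers is not reported here.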

Additional observations from a re-analysis of the deposited data

How the results depend on the processing

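Of 180 values of single members under other scalings, a prior count of 5 and thinning of the deeper library, 180 stayed inside their own intervals. No scaling moved the median log2 ratio of all genes by over 0.01, and no member changed level by more than 1.35-fold with the longest transcript as its length. The count of members 1.2-fold apart was 1 after thinning (Nusap1, 1.21-fold lower), against 0, and the count 1.5-fold apart stayed 0 under each alternative run. Ratios below 1 numbered 14 of 19 (73.7%) when only members with 1 curated transcript were kept, against 29 of 35 (82.9%). Of the measured members with 2 or more curated transcripts, 15 of 16 had a ratio below 1, and 5 of the 16 an interval below 1. Over all genes tested, 51.9% had a ratio below 1 and 19.5% an interval below 1. These shares were not computed by number of curated transcripts, so the counts by transcript number have no matched background. With 1 curated transcript, the median log2 ratio of the checkpoint and anaphase group was 0.022 against -0.05. It rests on 3 genes, Pttg1 and Mad2l1 having dropped out. The spindle and cytokinesis group has no member with 1 curated transcript and none at 100 CPM, so it had no value there. Without the 12 most abundant genes in the total, the members took 0.900% of reads in the KO-labelled library and 0.936% in the wildtype library. The 100 CPM level, the count of intervals below 1 and the alternatives run for that count were chosen after seeing the data; that count was 16 under each scaling, prior count, thinning and low-count setting, 15 at 100 CPM and 11 among genes with 1 curated transcript. No paired analysis was possible because each genotype is 1 library, and no library could be left out. Low depth limits Bub1, Tpx2, Prc1 and Racgap1, whose intervals include ratios on either side of 1.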
